A study of Mus musculus with 4 samples.

Results

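The Notch pathway was followed in sorted mouse hair follicle stem cells through 35 genes, chosen by symbol for their known roles: ligands, receptors, processing enzymes, glycosyltransferases, the nuclear complex, targets and modulators. All 35 had a row in the count table, out of 24084 gene rows, and 27 passed the filter on low counts and were tested. The cells came from C57BL/6 mice aged 7 to 10 weeks and were taken on day 4 after hair removal, a procedure that sends resting follicles into growth. The tested animals were Foxp3-DTR, labelled as depleted of regulatory T cells (2 libraries, C and D), and the comparison animals were WT, labelled as keeping them (2 libraries, A and C). Every mouse, WT included, was given diphtheria toxin by intraperitoneal injection (15 ng/g). The DTR allele places a receptor for that toxin under Foxp3, the gene that marks regulatory T cells, which makes them sensitive to it. The comparison asks how the stem cells differ when these T cells are missing. Whether a library came from 1 animal or from a pool is not given in the sources used here, so each p-value reflects variation among 4 libraries that may be partly technical.

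Notch receptors sit in the cell membrane and are bound by Jagged or Delta-like ligands on a neighbouring cell. Binding exposes the receptor to ADAM proteases and then to gamma-secretase, which frees the intracellular part of the receptor. That part enters the nucleus, joins the DNA-binding protein RBPJ and a Mastermind coactivator, and switches on targets such as the HES and HEY repressors. In skin the pathway is known for its part in moving keratinocytes from the basal to the spinous layer and in upkeep of the hair follicle.

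RBPJ binds a short DNA word with the core TGGGAA, which the longer form GTGGGAA contains. Both forms were looked for on both strands in the 250 bases before the start of each promoter entry (RefSeq promoters, GRCm38.p6). Such a start can lie inside the annotated gene, as in Rbpj, Maml2 and Psen2. Of the 35 genes 29 had a promoter entry. The core occurred in 10 of these genes and the longer form in 5. Counted by promoter, the core was in 11 of 36 entries of these genes and in 21.6% of all 32851 mouse promoters, and the longer form was in 5 of 36 and in 5.42% of all. Printed here are the promoters of Lfng and Rbpj, whose p-values were among the 3 smallest of the 27 tested genes, and of Hes5, a pathway target that had no reads in any library. For Rbpj, which has 2 promoter entries, the upstream one is shown. It lies inside the annotated gene (chromosome 5, 53466152 to 53657362, plus strand), not before its first base. All lie on the plus strand, at chr5:140607091-140607340 for Lfng, chr5:53590096-53590345 for Rbpj and chr4:154960673-154960922 for Hes5. Capitals mark the core, written as TTCCCA where it lies on the other strand.
Lfng: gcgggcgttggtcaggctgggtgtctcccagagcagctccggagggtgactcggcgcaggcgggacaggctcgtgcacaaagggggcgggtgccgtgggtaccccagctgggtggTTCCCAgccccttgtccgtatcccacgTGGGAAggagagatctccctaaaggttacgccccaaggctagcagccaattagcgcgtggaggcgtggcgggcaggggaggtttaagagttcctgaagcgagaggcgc
Rbpj: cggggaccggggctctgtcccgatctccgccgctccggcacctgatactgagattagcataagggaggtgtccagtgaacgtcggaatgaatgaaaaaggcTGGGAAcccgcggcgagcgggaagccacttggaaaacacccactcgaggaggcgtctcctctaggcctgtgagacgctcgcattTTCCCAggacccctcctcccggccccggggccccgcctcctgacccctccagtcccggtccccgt
Hes5: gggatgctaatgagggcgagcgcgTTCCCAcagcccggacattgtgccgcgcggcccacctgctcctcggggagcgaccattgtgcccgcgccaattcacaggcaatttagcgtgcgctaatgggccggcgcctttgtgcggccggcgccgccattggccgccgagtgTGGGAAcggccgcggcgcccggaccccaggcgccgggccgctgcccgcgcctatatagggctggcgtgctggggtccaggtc
Each of the 3 holds the core on both strands, which places it among the 2.77% of mouse promoters with at least 2 matches. No other of the 36 entries held 2 matches, so the 3 printed do not stand for the rest. Hey2, also a target with no reads, and the other Rbpj entry held the core on 1 strand only, and Nrarp held 0. The 2 Rbpj windows overlap, and the match in the other entry is the same site as the TTCCCA printed above. That site therefore counts in both Rbpj entries among the 11 of 36. Hes1, which had the smallest p-value of the 27 genes, had no promoter entry. Both matches in Hes5 were of the longer form, as was 1 of the 2 in Lfng, and neither match in Rbpj was. A match is a description of the letters and does not show that RBPJ was bound there in these cells.

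Gene counts per library ran from 13911765 to 15923154. All 11 follicle stem cell markers, among them Cd34, Krt15, Lhx2 and Sox9, were detected in every library, with a summed level of 27480.5 and 31769.5 CPM (gene counts as CPM, with library sizes scaled by TMM factors) in Foxp3-DTR C and D and 33286.5 and 34178 CPM in WT A and C. The sum hides differences of opposite sign, though 0 of the 11 passed edgeR's test. Lhx2 had 425 and 439 CPM in Foxp3-DTR, against 788 and 804 CPM in WT (edgeR adjusted p = 0.0778). Cd34 had 1708 and 1624 CPM in Foxp3-DTR, against 936 and 1215.5 CPM in WT (edgeR adjusted p = 0.239). Foxp3 had 0 counts in all 4 libraries, so it does not check the depletion. The Y-linked genes Ddx3y, Eif2s3y, Kdm5d and Uty summed to 319 and 259 CPM in Foxp3-DTR C and D, and had 0 counts in both WT libraries. The sex of the animals, and a code in the sample titles (DEP3 in Foxp3-DTR, DEP2 in WT), therefore cannot be told apart from genotype in any comparison here. Replicates also differed within each group. Krt10, a keratin of the spinous layer, stood at 458 and 3794 CPM in Foxp3-DTR C and D, against 4559 and 249 CPM in WT. The summed level of 11 spinous and cornified markers was 2284 and 8864 CPM in Foxp3-DTR C and D, and 11356.5 and 2930.4 CPM in WT A and C. Of the 11, Calml3 alone differed by group at the threshold used below. It had 354 and 507 CPM in Foxp3-DTR C and D, and 1413 and 1149 CPM in WT A and C (edgeR adjusted p = 0.0486). Sebaceous markers summed to 236 and 376 CPM in Foxp3-DTR, against 1836 and 280.3 CPM in the WT pair, A and C. T cell markers summed to 2.78 and 2.55 CPM in Foxp3-DTR, against 13.1 and 2.77 CPM in the WT pair. Myeloid markers summed to 1.19 and 0.212 CPM in Foxp3-DTR, and to 7.81 and 1.48 CPM in WT A and C. Of the 10 fibroblast and dermal papilla markers, Dpt, Lum, Mfap5 and Corin had 0 counts in every library, and the list summed to 27.8 and 32.2 CPM in Foxp3-DTR C and D, below the 41.1 and 53.7 CPM in WT A and C. Within that list Col1a1 had 3.05 and 5.74 CPM in Foxp3-DTR, against 15.1 and 16.4 CPM in WT (edgeR adjusted p = 0.0982). The 6 melanocyte markers summed to 33.9 and 44.7 CPM in Foxp3-DTR, above the 33.0 and 18.8 CPM in WT, though Foxp3-DTR C and WT A were close. The part of these cell types in the results below was not tested. In sorted cells measured in bulk, fewer cells of a type and less RNA per cell cannot be told apart.

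Of the 27 tested genes 0 passed edgeR's quasi-likelihood test after Benjamini-Hochberg adjustment over the 12920 genes tested, where 1.25% of all genes passed. At an unadjusted p under 0.05 there were 5, against 14.6% of all genes: Dll1, Notch2 and Rbpj with higher values in Foxp3-DTR, and Hes1 and Lfng with lower ones. The result depended on the method. DESeq2, where 7.40% of all genes passed, called Dll1 and Rbpj higher and Hes1 and Lfng lower, and edgeR without a filter on low counts (3.37% of all genes) called Rbpj higher and Hes1 and Lfng lower. Limma-voom, where 0.720% passed, called 0. Without Foxp3-DTR D, edgeR called Dll1 higher and Hes1 lower (3.16% of all genes), and without WT C it called Rbpj higher and Hes1 lower (2.63%). Without Foxp3-DTR C or without WT A it called 0 of the genes.

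Fold changes over the 27 genes were positive for 19 and negative for 8, while 48.6% of all tested genes were positive. The median log2 fold change was 0.13, against -0.01 over all tested genes. Both Foxp3-DTR libraries lay above both WT libraries for 10 genes and below them for 4, while 22.0% and 23.7% of all tested genes did so. By role, all 3 tested ligands, all 3 tested receptors and all 5 genes of the nuclear complex had positive fold changes, while all 3 tested targets had negative ones. Among the 5 tested modulators 3 were positive and 2 negative. In 13 of the 27 genes the fold change was smaller than its own standard error, among them Jag2, Notch3, Maml2, Hey1 and Nrarp, and the signs of Jag2, Notch3, Maml2 and Nrarp turned when single libraries were left out.

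**Figure D1:**
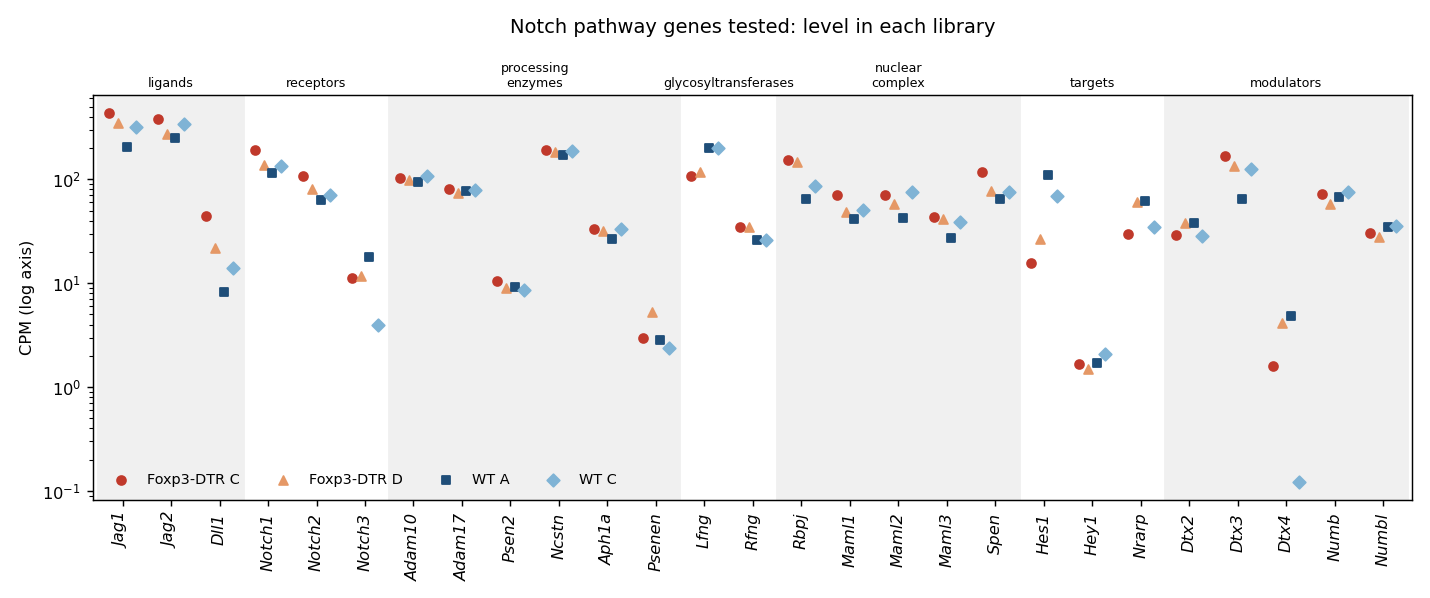
Level of the 27 tested Notch pathway genes in CPM (log axis), 1 point per library, with Foxp3-DTR C and D left of WT A and C and genes grouped by role. Hes1 and Lfng have both Foxp3-DTR points below both WT points, Rbpj and Dll1 have them above, and Notch3 and Dtx4 show their widest gap between the 2 WT libraries.

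Jag1 and Jag2 were the main ligands. Jag1, a ligand of the Jagged class, had 435 and 348 CPM in Foxp3-DTR C and D, and 203.5 and 317 CPM in WT A and C. The groups did not overlap, but Foxp3-DTR D and WT C lay closer to each other than WT A and C did. Its log2 fold change was 0.59 ± 0.26 (SE; edgeR adjusted p = 0.380). Jag2, the other Jagged ligand, had 383 and 272 CPM in Foxp3-DTR C and D, and 248 and 343 CPM in WT A and C, so that the groups overlapped (log2 fold change 0.15 ± 0.25, edgeR adjusted p = 0.861).

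Dll1, a Delta-like ligand at chromosome 17, 15367354 to 15376872 (mm10, minus strand), had 44.5 and 22.0 CPM in Foxp3-DTR C and D, and 8.16 and 14.0 CPM in WT A and C. Both Foxp3-DTR libraries were above both WT libraries, and within each group 1 library had more than the other by a factor of 2.03 in Foxp3-DTR and 1.72 in WT. The log2 fold change was 1.58 ± 0.44, the largest positive value among the 27 tested genes, with an unadjusted p of 0.0102 and an adjusted p of 0.151 in edgeR. Leaving out Foxp3-DTR C gave 0.99, and the 4 fits that left out a library spanned 0.99 to 2.03. Its adjusted p ran from 0.0131 with DESeq2 to 0.799 without Foxp3-DTR C in edgeR. Of its exon bases 20.5% are shared with the annotated gene A930024N18Rik, whose reads cannot be told apart without the counter's strand setting.

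The ligands Dll3 and Dll4 did not pass the filter on low counts. Dll3, known as an inhibitory ligand, had 3 and 6 counts in Foxp3-DTR C and D, and 3 and 0 counts in WT A and C. Dll4, the ligand of growing blood vessels, had 0 and 1 counts in Foxp3-DTR C and D, and 3 and 0 counts in WT A and C. Of the 10 endothelial markers, Cdh5, Kdr, Emcn, Cldn5 and Erg had 0 counts in every library, and the 5 others had reads in some or all. The whole list summed to 3.84 and 2.97 CPM in Foxp3-DTR C and D, and to 5.63 and 4.92 CPM in WT A and C. Tek, the one with most reads, had 16 and 21 counts in Foxp3-DTR C and D, and 44 and 77 counts in WT A and C, while Flt1 had 11 and 6 counts in Foxp3-DTR and 0 in both WT libraries. The part of endothelial RNA in the Notch gene levels was not tested.

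Per kilobase of exon, Jag1 and Jag2 made up nearly all of the ligand level. Jag1 was 53.2% and 57.3% of the summed CPM per kb of the 5 ligands in Foxp3-DTR C and D, and 48.1% and 50.9% in WT A and C. Jag2 was 39.2% and 37.5% in Foxp3-DTR C and D, and 49.0% and 46.0% in WT A and C. Dll1 was 7.52% and 4.99% in Foxp3-DTR, against 2.67% and 3.11% in WT. Jag1 led in Foxp3-DTR, on average, with either length used, while in WT the leading Jagged gene depended on the library and the length. With the longest transcript as length, Jag2 averaged 44.6% in Foxp3-DTR and 54.1% in WT, while Jag1 averaged 49.0% in Foxp3-DTR and 42.9% in WT. For any such value per library, an exact two-sided permutation test of 2 against 2 cannot give a p below 0.333.

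Notch1 and Notch2 made up most of the receptor level, and both had positive fold changes that did not pass. Notch1 had 190 and 139 CPM in Foxp3-DTR C and D, and 114.5 and 135 CPM in WT A and C. Foxp3-DTR D and WT C were near each other. Its log2 fold change was 0.40 ± 0.22 (edgeR adjusted p = 0.489). Notch2 (chromosome 3, 98013527 to 98150361) had 108.1 and 81.0 CPM in Foxp3-DTR C and D, and 62.5 and 70.0 CPM in WT A and C. The groups did not overlap, and the log2 fold change was 0.51 ± 0.21, with an unadjusted p of 0.0460 and an edgeR adjusted p of 0.328. By CPM per kb Notch1 was 53.8% and 51.9% of the receptors in Foxp3-DTR C and D, and 50.0% and 57.5% in WT A and C, so its share overlapped between the groups.

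Notch3, a receptor best known from the smooth muscle of vessels, differed between the WT libraries more than between the groups. It had 11.3 and 11.8 CPM in Foxp3-DTR C and D, and 17.7 and 4.00 CPM in WT A and C. Notch4, an endothelial receptor, had 7 and 8 counts in Foxp3-DTR C and D, and 5 and 1 counts in WT A and C, and did not pass the filter. The mural cell markers Rgs5, Pdgfrb and Abcc9 had 0 counts in every library. Cspg4, also on the mural list, stood at 364 to 627 CPM over the 4 libraries. The mural list without Cspg4 summed to 16.4 and 18.0 CPM in Foxp3-DTR, and to 19.7 and 10.5 CPM in WT A and C. Most of this sum was Mcam. It had 241 and 239 counts in Foxp3-DTR C and D, and 229 and 155 in WT A and C. Acta2 had 3 counts in both Foxp3-DTR libraries, and 47 and 11 in WT A and C (edgeR adjusted p = 0.268). The part of mural cell RNA in the Notch gene levels was not tested.

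**Figure D2:**
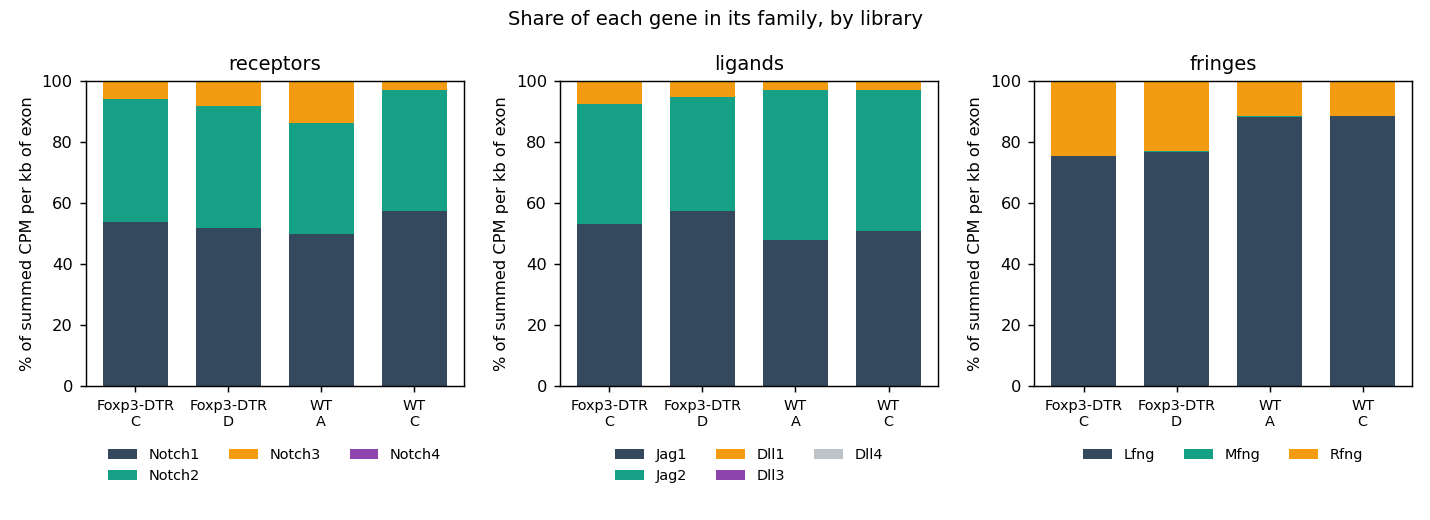
Share of each gene, in percent of the summed CPM per kb of exon of its family, in each library (Foxp3-DTR C and D left of WT A and C), for receptors, ligands and Fringe glycosyltransferases. Rfng takes 24.4% and 23.0% of the Fringe level in Foxp3-DTR and 11.5% and 11.6% in WT. Its share also depends on Lfng, which has fewer CPM in both Foxp3-DTR libraries than in WT. Among receptors, the Notch1 shares overlap between the groups. The Notch2 shares do not, at 40.4% and 40.0% in Foxp3-DTR and 36.1% and 39.5% in WT.

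The processing enzymes differed little between the groups. Of the 6 tested, 5 had overlapping groups and log2 fold changes between -0.02 and 0.12. Adam10, the protease that makes the first cut after ligand binding, had 101.9 and 99.5 CPM in Foxp3-DTR C and D, and 93.6 and 108.3 CPM in WT A and C. Adam17, a related membrane protease, ranged from 73.2 to 80.5 CPM over the 4 libraries. Of the gamma-secretase subunits, Ncstn, which recognises the substrate, ranged from 173 to 190.2 CPM, Aph1a, a scaffold subunit, from 26.8 to 33.3 CPM, and the catalytic subunit Psen2 from 8.54 to 10.4 CPM. Psenen, the smallest subunit, had 2.98 and 5.31 CPM in Foxp3-DTR C and D, and 2.81 and 2.40 CPM in WT A and C. The groups did not overlap, but with 39 to 75 counts per library the log2 fold change was 0.67 ± 0.62 (edgeR adjusted p = 0.713).

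The Fringe glycosyltransferases, which add sugars to the receptor and so alter which ligands it answers to, had fold changes of opposite sign. Lfng (chromosome 5, 140607320 to 140615545, plus strand) had 107.8 and 118 CPM in Foxp3-DTR C and D, and 201 and 199 CPM in WT A and C. The 2 libraries of each group were close together, and the groups did not overlap. The log2 fold change was -0.83 ± 0.17, with an unadjusted p of 0.00231 and an edgeR adjusted p of 0.0778, which did not pass. It kept its sign in every fit that left out a library, from -0.88 to -0.76, and its adjusted p was 0.00136 with DESeq2, 0.0855 with limma-voom and 0.607 in edgeR without Foxp3-DTR C, the highest of the alternatives.

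Rfng, a second Fringe, had 34.6 and 35.1 CPM in Foxp3-DTR C and D, and 26.0 and 25.9 CPM in WT A and C, giving 0.42 ± 0.22 on the log2 scale (edgeR adjusted p = 0.457). The ratio of Lfng to Rfng in CPM per kb was 3.10 and 3.34 in Foxp3-DTR C and D, and 7.68 and 7.61 in WT A and C. This pair was chosen after its values were seen. Unlike Krt10, the ratio hardly differed between the replicates of a group. Mfng, the third Fringe, had 1 and 8 counts in Foxp3-DTR C and D, and 10 and 0 counts in WT A and C, and did not pass the filter.

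In the nuclear complex Rbpj stood apart from its partners. Rbpj, the DNA-binding protein of the pathway (chromosome 5, 53466152 to 53657362, plus strand), had 153 and 145 CPM in Foxp3-DTR C and D, and 63.9 and 86.9 CPM in WT A and C. Both Foxp3-DTR libraries were well above both WT libraries. The log2 fold change was 0.98 ± 0.21, a 1.98-fold difference, with an unadjusted p of 0.00261 and an edgeR adjusted p of 0.0814. The adjusted p was 0.00139 with DESeq2, 0.0865 with limma-voom, and 0.0390 without WT C and 0.341 without Foxp3-DTR C in edgeR. The annotation holds 2 processed pseudogenes of Rbpj, so reads that match a pseudogene as well may not have been counted, and its level is uncertain.

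The Mastermind coactivators had smaller values. Maml1 had 70.5 and 48.2 CPM in Foxp3-DTR C and D, and 41.1 and 50.5 CPM in WT A and C, with overlapping groups, as in Maml2 (log2 fold change 0.13 ± 0.30). Maml3 had 43.0 and 41.1 CPM in Foxp3-DTR, and 27.2 and 38.5 CPM in WT, with a log2 fold change of 0.35 ± 0.24. Spen, a corepressor that binds RBPJ when no receptor fragment is present, had 117 and 76.3 CPM in Foxp3-DTR C and D, and 64.7 and 74.9 CPM in WT A and C (log2 fold change 0.47 ± 0.25, edgeR adjusted p = 0.465). The Foxp3-DTR D and WT C values of Spen nearly met.

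**Figure D3:**
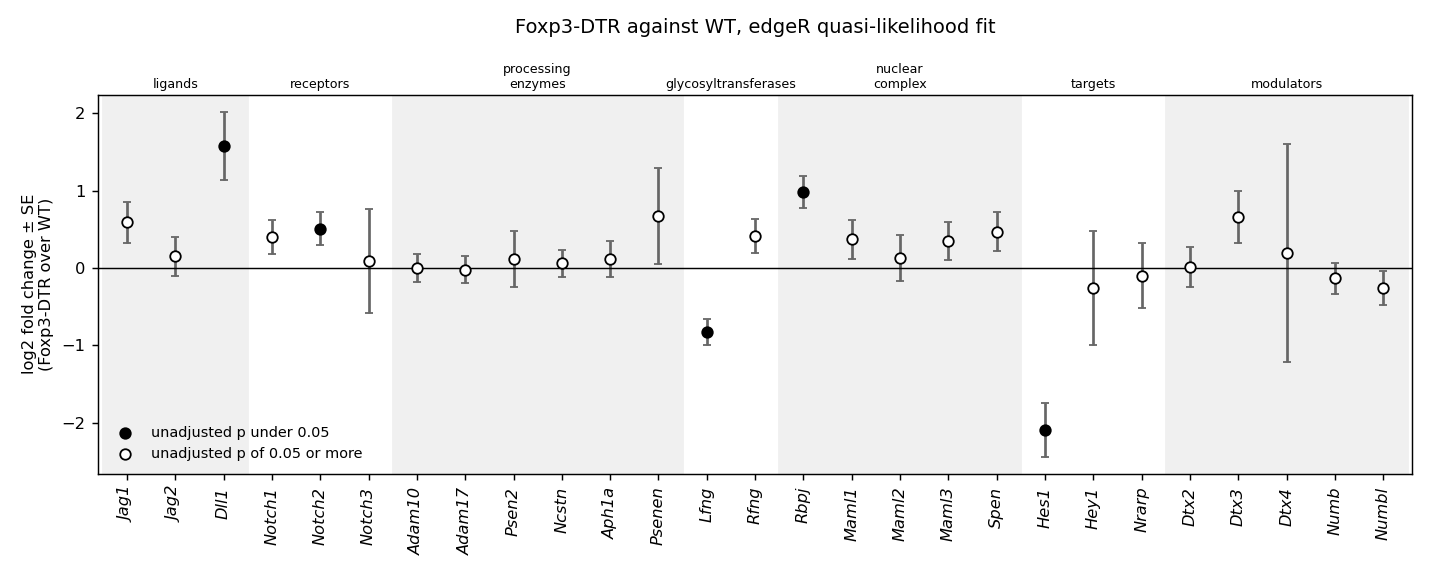
Log2 fold change of each tested Notch pathway gene, Foxp3-DTR over WT, with its standard error from edgeR's quasi-likelihood fit (2 libraries per group). Filled points have an unadjusted p under 0.05 and are Dll1, Notch2, Rbpj, Lfng and Hes1, and 0 of the 27 genes passed after adjustment over all genes.

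Among the targets, Hes1 had by far the largest fold change and lay just outside the threshold. Hes1, a basic helix-loop-helix repressor (chromosome 16, 30064384 to 30067796, plus strand), had 15.7 and 26.5 CPM in Foxp3-DTR C and D, and 109.9 and 69.2 CPM in WT A and C. In counts this was 237 and 374 in Foxp3-DTR, and 1562 and 1126 in WT. The highest Foxp3-DTR value was less than the lowest WT value, and the mean was 21.1 ± 7.62 CPM in Foxp3-DTR and 89.6 ± 28.8 CPM in WT (SD, n = 2 each). The log2 fold change was -2.09 ± 0.35, with an unadjusted p of 0.000780 and an edgeR adjusted p of 0.0523.

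Fits that left out 1 library gave Hes1 log2 fold changes from -2.50 to -1.70. Its edgeR adjusted p was 0.00602 without Foxp3-DTR D and 0.0334 without WT C, but 0.0921 without Foxp3-DTR C and 0.0690 without WT A. With DESeq2 it was 1.69e-06, and with limma-voom 0.0626.

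Nrarp and Hey1, the other tested targets, had smaller fold changes with wide standard errors. Nrarp, a feedback inhibitor that the pathway switches on, had 29.9 and 60.5 CPM in Foxp3-DTR C and D, and 61.8 and 35 CPM in WT A and C. The high and low libraries of each group were the same as for Krt10, and the log2 fold change was -0.10 ± 0.42 (edgeR adjusted p = 0.950). Without Foxp3-DTR C the value was 0.32, and without Foxp3-DTR D -0.69, so its sign rests on single libraries. Of the exon bases of Nrarp 79.4% are shared with the annotated gene Gm38287, so its reads are uncertain.

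Within each library Hes1 and Nrarp kept a steady proportion that differed between the groups. The ratio of Hes1 to Nrarp in CPM was 0.525 and 0.438 in Foxp3-DTR C and D, and 1.78 and 1.98 in WT A and C, although each gene differed by 1.59 to 2.02 times between the replicates of a group. This pair too was chosen after its values were seen. The Nrarp groups overlapped, so the group difference of the ratio is that of Hes1 and not a further result. The ratio of Rbpj to Hes1 was less steady, at 9.74 and 5.49 in Foxp3-DTR C and D, and 0.581 and 1.26 in WT A and C. Hey1, a repressor related to Hes1, was read 21 to 34 times per library, at 1.66 and 1.49 CPM in Foxp3-DTR C and D, and 1.69 and 2.09 CPM in WT A and C (log2 fold change -0.26 ± 0.74, edgeR adjusted p = 0.922). The Hey1 groups did not overlap, Foxp3-DTR being lower. So few reads cannot settle whether Hey1 shared the difference of Hes1. Heyl, a further member of that family, had 10 and 7 counts in Foxp3-DTR and 6 and 2 in WT.

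Hes5 and Hey2, targets that are prominent in other tissues, had 0 counts in all 4 libraries, as did the ubiquitin ligase gene Dtx1. With 0 reads seen, a true level of up to 3 counts cannot be told from none (0.199 and 0.212 CPM in Foxp3-DTR C and D, and 0.211 and 0.184 CPM in WT A and C, counting error only). No difference in these genes was detectable at this depth. Of the exon bases of Hes5 31.8% are shared with the annotated gene Gm20421.

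The modulators were Deltex and Numb genes. Dtx3, a Deltex ubiquitin ligase, had 168 and 133 CPM in Foxp3-DTR C and D, and 64.2 and 127 CPM in WT A and C. The groups did not overlap, though WT C and Foxp3-DTR D were close (log2 fold change 0.66 ± 0.34, edgeR adjusted p = 0.467). Dtx2 ranged from 28.3 to 37.9 CPM with overlapping groups. Dtx4 had 1.59 and 4.11 CPM in Foxp3-DTR C and D, and 4.85 and 0.123 CPM in WT A and C, the last of these on 2 counts. The order of its libraries was that of Krt10. Numb, an adaptor that restrains Notch by sending it for uptake and breakdown, had 72.8 and 57.9 CPM in Foxp3-DTR C and D, and 67.5 and 75.6 CPM in WT A and C. Its relative Numbl had 30.6 and 27.8 CPM in Foxp3-DTR C and D, and 34.8 and 35.3 CPM in WT A and C. The Numbl groups did not overlap, but the log2 fold change of -0.26 ± 0.22 did not pass (edgeR adjusted p = 0.670).

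Replicates of a group differed in both directions relative to Krt10. For 8 of the 27 tested genes the higher library in each group was the one with more Krt10 (Foxp3-DTR D and WT A), as it was for 32.1% of all tested genes. These were Notch3, Psenen, Lfng, Rfng, Hes1, Nrarp, Dtx2 and Dtx4, although the replicates of Lfng and Rfng differed by at most 1.09 times. For 18 genes, among them Jag1, Jag2, Dll1, Notch1, Notch2, Rbpj and the 3 Mastermind genes, the higher library in each group was the one with less Krt10, against 32.7% of all tested genes. This comparison with Krt10 was chosen after the values were seen, and the part of spinous cells in these levels was not tested.

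**Figure D4:**
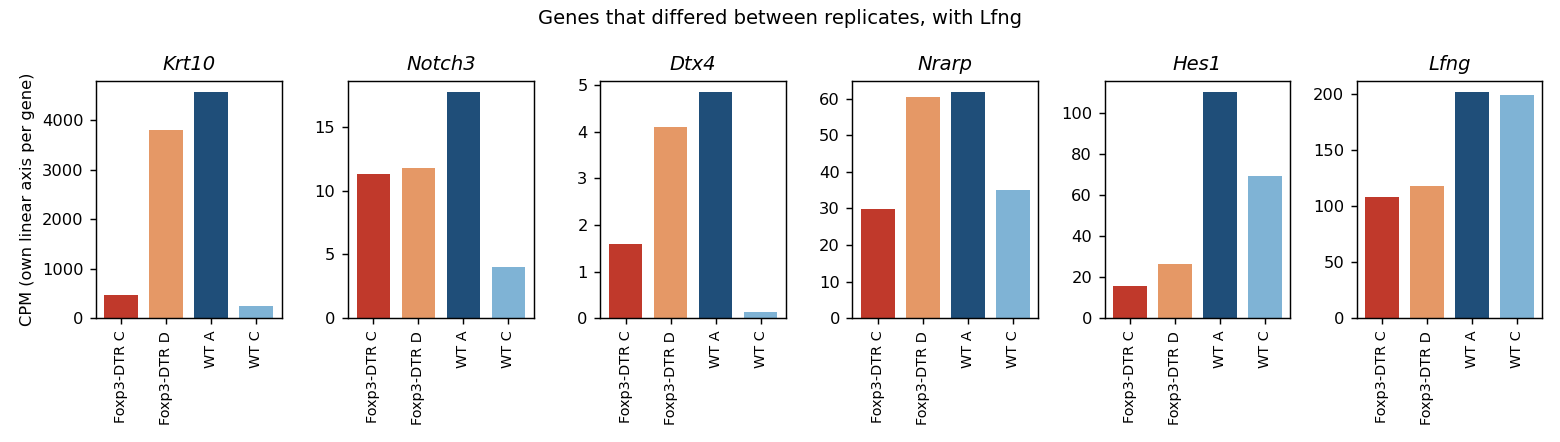
CPM of Krt10, Notch3, Dtx4, Nrarp, Hes1 and Lfng in Foxp3-DTR C and D and WT A and C, each gene on its own linear axis from 0. Nrarp and Dtx4 share the order of Krt10 within both groups, Hes1 keeps that order but has both Foxp3-DTR libraries below both WT libraries, and Lfng differs little between replicates.

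Further genes of the pathway were followed through a list of 42, of which 38 were tested, and 0 passed edgeR's test over all genes, with 19 positive and 19 negative fold changes and a median of 0.01. At an unadjusted p under 0.05 there were 4 of the 38, a smaller share than the 14.6% of all tested genes, so the count is not a result about the list. Tle3, a Groucho-type corepressor that HES proteins recruit, had 64.6 and 59.8 CPM in Foxp3-DTR C and D, and 137 and 119 CPM in WT A and C. Its groups were far apart, with a log2 fold change of -1.04 ± 0.18 and an adjusted p of 0.0543 in edgeR. DESeq2 and edgeR without a filter called Tle3 lower, as did edgeR without WT C.

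Dlk2, a non-canonical Delta-like protein, had 32.0 and 32.5 CPM in Foxp3-DTR C and D, and 14.9 and 21.1 CPM in WT A and C (log2 fold change 0.84 ± 0.27, edgeR adjusted p = 0.208). Aph1b, an alternative gamma-secretase scaffold, had 18.4 and 24.9 CPM in Foxp3-DTR C and D, and 34.9 and 34.8 CPM in WT A and C (log2 fold change -0.69 ± 0.25, edgeR adjusted p = 0.272). Aph1b has a near-identical neighbour, Aph1c, at 10.3 and 7.44 CPM in Foxp3-DTR and 2.88 and 6.89 CPM in WT, so reads of both are uncertain. Neurl1a, a ubiquitin ligase gene of the Neuralized family that acts on ligands, had 8 and 12 counts in Foxp3-DTR C and D, and 39 and 48 counts in WT A and C (log2 fold change -2.03 ± 0.79, edgeR adjusted p = 0.297).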

How the data were processed

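Gene expression was measured by RNA sequencing of 2 Foxp3-DTR and 2 WT libraries made with a stranded poly(A) kit, per the labels' protocols. The authors deposited raw counts of reads for each gene symbol in each library. The submitters' processing notes name build mm10 and HTSeq 0.6.1, SAMtools 0.1.19.0, CASAVA 1.8.2, Bowtie2 2.1.0.0 and TopHat2 2.0.12. For the annotation and strand setting the entry is: not given in the sources used here. The 5 rows that name no gene held 62.0% to 70.1% of each library's counts, most of them non-unique alignments, and were left out.

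Tests used R 4.3.3 and edgeR 4.0.16 (TMM, filterByExpr, robust quasi-likelihood fit, Benjamini-Hochberg over 12920 genes, threshold 0.05), with group as the only term. Standard errors came from the fold change and the F statistic. CPM used all gene counts and TMM factors. The alternatives were DESeq2 1.42.0, limma-voom (limma 3.58.1), RLE size factors, no filter, and leaving out each library, where a lone library is taken to vary like the other group. The code was tested on simulated data. Lengths, coordinates and overlaps are from GENCODE M21 (GRCm38, the assembly mm10 names), and per-kb values used the union of exons.

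The genes and lists were chosen with earlier results of these data known. Full statistics were given for genes with an unadjusted p under 0.05 and for Jag1, Jag2, Notch1, Notch2, Hes1, Hey1, Nrarp and Rbpj, and the others by level. Fold changes of Rfng, Psenen, Spen, Dtx3, Numbl, Maml2 and Maml3 were given beyond this rule, after their values were seen. Single genes of the cell type lists were also picked after their values were seen. From the further pathway genes those with an unadjusted p under 0.05 were named. Floors cover counting error only, while the standard errors also carry the spread between libraries.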

Additional observations from a re-analysis of the deposited data

How the results depend on the processing

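Calls depended on the method. Members called higher and lower were 0 and 0 in the edgeR fit reported, 1 and 2 without a filter, 2 and 2 with DESeq2, and 0 to 1 each over the fits that left out a library. Members at an unadjusted p under 0.05 numbered 5, and 3 to 9 over those fits. Of the further pathway genes 1, Tle3, was called without a filter and with DESeq2, and 0 to 1 without a library. Over all genes 161 were called, against 529 without a filter, 93 with limma-voom, 1003 with DESeq2, and 80 to 423 without a library. The cause of these differences was not tested.

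Of 27 tested members 17 kept their sign in every alternative. The 10 others had fold changes near 0 or a wide spread. Adam10 had 0.01 with RLE factors, without a filter and with DESeq2. Over the fits without a library, log2 fold changes ran from -0.11 to 0.41 in Jag2, -0.62 to 1.54 in Notch3, -0.09 to 0.11 in Adam10, -0.09 to 0.05 in Adam17, -0.01 to 0.28 in Aph1a, -0.21 to 0.61 in Maml2, -0.69 to 0.38 in Nrarp, -0.18 to 0.25 in Dtx2, -0.77 to 4.46 in Dtx4 and -0.30 to 0.03 in Numb. The median over members ran from 0.12 to 0.28 over all alternatives.

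With the longest transcript as length, the mean share among receptors was 62.1% in Foxp3-DTR and 62.9% in WT for Notch1 (52.8% and 53.8% by exon union), and 32.3% and 30.3% for Notch2 (40.2% and 37.8%). Among ligands it was 49.0% in Foxp3-DTR and 42.9% in WT for Jag1 (55.3% and 49.5%), and 44.6% and 54.1% for Jag2 (38.4% and 47.5%). No paired analysis was possible because the groups share only the replicate letter C. The filter on low counts left out 8 members with 0 to 10 counts per library; without it 32 of 35 were tested, and the 3 others had 0 counts.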
